A study of Mus musculus with 8 samples.

Results

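Chemokines are small secreted proteins that steer the movement of leukocytes, and their receptors are G protein-coupled receptors on the cells that follow them. The genes were taken by name: every gene whose symbol in the array annotation starts with Ccl, Cxcl, Xcl, Cx3cl, Ccr, Cxcr, Xcr or Cx3cr directly followed by a digit, read from probe sets that carry that symbol alone. This gave 47 of the 19560 genes measured, 33 chemokines and 14 receptors, with 1 to 10 probe sets each and a median of 5. The RNA came from livers of 8 males at 6 weeks of age, each hybridised to its own Affymetrix array. All 8 mice lacked the kinase TAK1 in liver parenchymal cells (LPC), the cells labelled LPC-KO. In the 4 Tak1/Caspase8 LPC double knockout mice, called Tak1/Casp8 here, the same cells also lacked caspase 8, through which death receptors trigger apoptosis. In the 4 Tak1 LPC-KO/Rip3-/- mice, called Tak1/Rip3 here, RIP3, a kinase required for necroptosis, was knocked out in the whole animal, leukocytes included. The design asks which genes apoptotic and necrotic signalling regulate differently. Which promoter drives the LPC deletion was not stated in the labels, and no livers with intact TAK1 enter the comparison. A gene that was higher in the Tak1/Casp8 livers may therefore equally be read as lower in the Tak1/Rip3 livers.

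In injured liver, chemokines come from hepatocytes, bile duct cells, endothelium, stellate cells and resident macrophages, and NF-kB, which lies downstream of TAK1, is a well known activator of several of their genes. The CXC chemokines Cxcl1 and Cxcl2 act on Cxcr2 and draw neutrophils. Ccl2 acts on Ccr2 and draws monocytes, Ccl3 acts on Ccr1, the eotaxins Ccl11 and Ccl24 act on the eosinophil receptor Ccr3, and Cxcl9, Cxcl10 and Cxcl11 are induced by interferon and draw T cells and natural killer cells. The values are log2 intensities normalised by RMA, so a difference of 1 is a doubling, and positive differences mean a higher value in the Tak1/Casp8 livers. A gene passed the test where its p from limma's moderated test, adjusted by Benjamini-Hochberg over all 19560 genes, was under 0.05. In bulk tissue, fewer cells of a type and less RNA per cell cannot be told apart.

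The targeted genes were lower in the livers labelled as lacking them. Casp8 was 9.97 ± 0.13 (SD, n = 4) in the Tak1/Casp8 livers against 11.27 ± 0.13 in the Tak1/Rip3 livers, and Ripk3, the gene of RIP3, was 7.90 ± 0.09 against 6.92 ± 0.38. Map3k7, the gene of TAK1, which both groups lack in the same cells, differed by -0.08 (limma adjusted p = 0.695). Array medians lay between 8.06 and 8.16. The liver identity of the samples showed in albumin (Alb), at 13.91 and 13.95 in the Tak1/Casp8 and Tak1/Rip3 livers. Tak1/Casp8 replicate 4 and Tak1/Rip3 replicate 2 correlated least with the other arrays of their groups, and results that depend on them are given without them.

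The chemokine genes that passed went in both directions. Cxcl1, Ccl2 and Cxcl2 were higher in the Tak1/Casp8 livers, by 1.57, 1.40 and 0.48 on the log2 scale, and Ccl3 was lower by -0.80. Among the receptors, Ccr3 was lower by -1.79, and none of the 14 was higher. Thus 4 of 33 chemokines and 1 of 14 receptors passed, 5 of 47 in all (10.6%), beside 6.69% of all genes. The higher calls were 3 of 47, beside 2.64% of all genes, and the lower calls 2 of 47, beside 4.05%. The median difference over the 47 genes was -0.02, against 0.01 over all genes, and 20 differences were positive and 27 negative. The 4 values of each group did not overlap in 12 of the 47 genes (25.5%), beside 14.6% of all genes. The Tak1/Casp8 livers were the higher ones without overlap in 5 of the 47, beside 6.33% of all genes, and the lower ones in 7 of the 47, beside 8.30%. Under an adjusted p of 0.01, 3 of the 47 passed (Cxcl1, Ccl2 and Ccr3), beside 2.08% of all genes, and under 0.1, 9 of 47, beside 10.9%.

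**Figure D1:**
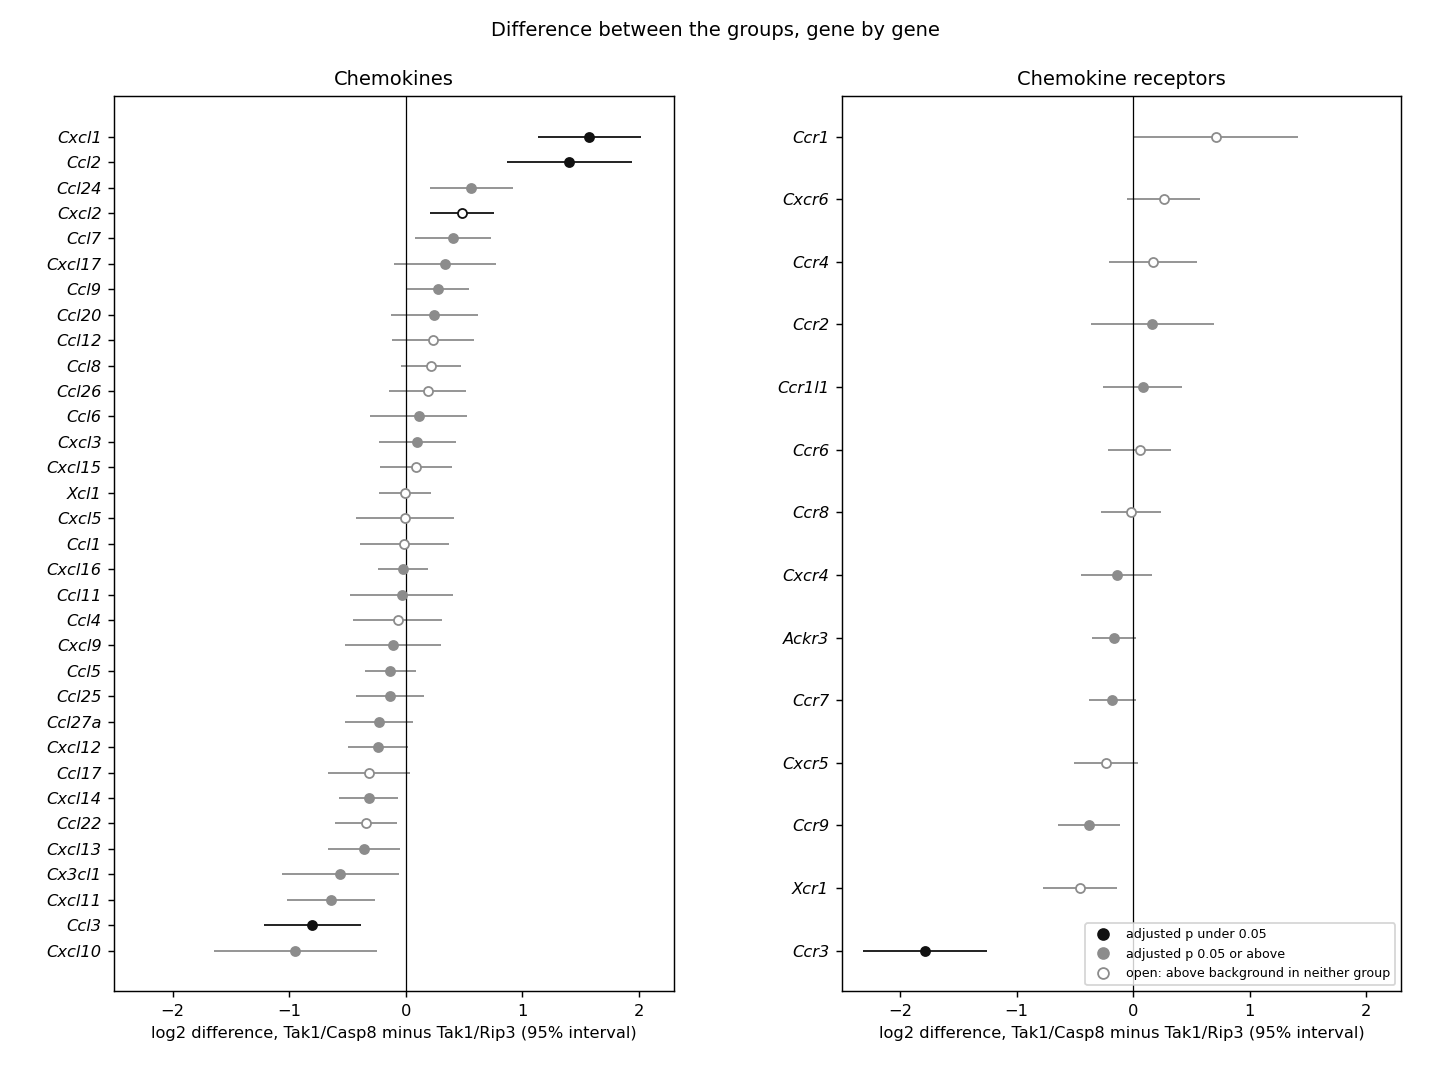
Log2 difference (Tak1/Casp8 minus Tak1/Rip3, x axis) of each of the 33 chemokines (left) and 14 receptors (right), with 95% intervals from limma and 4 livers per group. Black points and intervals passed the test, and open points mark genes above background in neither group. Cxcl1, Ccl2 and Cxcl2 lie to the right of 0, and Ccl3 and Ccr3 to the left.

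The promoters of the genes that passed are shown first, from 250 bases before to 50 after the annotated start site, because Cxcl1 and Cxcl2 hold the same NF-kB motif and Ccl3 holds none. Of the 47 genes, 34 had an entry in the RefSeq promoter table (build GRCm38.p6), with 38 start sites, and Ccl2 was not matched. Capitals mark matches to the NF-kB consensus motif, to the AP-1 motif TGANTCA or to the core of the interferon-stimulated response element (ISRE), searched on both strands together with the TATA box TATAAA. Cxcl10, which did not pass, is added for comparison as an interferon-induced chemokine with the first 3 motifs.
Cxcl1 (chr5:90890995-90891294, plus strand): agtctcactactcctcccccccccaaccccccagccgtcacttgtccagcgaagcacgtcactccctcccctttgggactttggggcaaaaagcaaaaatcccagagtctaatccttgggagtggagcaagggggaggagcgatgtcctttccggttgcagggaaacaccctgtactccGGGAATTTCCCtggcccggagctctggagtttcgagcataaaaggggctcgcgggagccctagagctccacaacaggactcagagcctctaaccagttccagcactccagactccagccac
Cxcl2 (chr5:90903649-90903948, plus strand): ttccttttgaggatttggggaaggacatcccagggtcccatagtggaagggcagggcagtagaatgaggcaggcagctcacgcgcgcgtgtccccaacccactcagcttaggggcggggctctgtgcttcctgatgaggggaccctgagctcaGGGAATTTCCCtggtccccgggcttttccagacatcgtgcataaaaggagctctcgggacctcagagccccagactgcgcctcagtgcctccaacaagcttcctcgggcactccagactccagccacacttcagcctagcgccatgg
Ccl3 (chr11:83649329-83649628, minus strand): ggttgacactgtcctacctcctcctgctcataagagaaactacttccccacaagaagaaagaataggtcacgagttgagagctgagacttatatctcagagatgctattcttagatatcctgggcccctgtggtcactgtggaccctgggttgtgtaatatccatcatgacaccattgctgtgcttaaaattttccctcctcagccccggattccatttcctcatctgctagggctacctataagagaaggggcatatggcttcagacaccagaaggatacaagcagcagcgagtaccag
Ccr3 (chr9:124021721-124022020, plus strand): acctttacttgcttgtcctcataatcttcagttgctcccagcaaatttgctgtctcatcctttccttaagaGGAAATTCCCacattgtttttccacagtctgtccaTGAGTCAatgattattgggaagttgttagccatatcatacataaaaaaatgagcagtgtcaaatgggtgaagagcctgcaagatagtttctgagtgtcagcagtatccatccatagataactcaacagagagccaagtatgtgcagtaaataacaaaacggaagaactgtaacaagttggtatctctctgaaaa
Cxcl10 (chr5:92348840-92349139, minus strand): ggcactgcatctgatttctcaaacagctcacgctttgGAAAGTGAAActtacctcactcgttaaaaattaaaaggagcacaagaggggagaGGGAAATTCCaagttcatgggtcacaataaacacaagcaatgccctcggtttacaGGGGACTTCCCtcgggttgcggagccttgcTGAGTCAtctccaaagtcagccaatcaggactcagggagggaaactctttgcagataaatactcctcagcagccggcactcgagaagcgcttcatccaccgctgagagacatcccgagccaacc

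Cxcl1 and Cxcl2 carry the same 11 bases, GGGAATTTCCC, which hold overlapping matches on the 2 strands, starting at position -71 from the start site in Cxcl1 and at -97 in Cxcl2. The NF-kB consensus was found in 8.46% of all 32851 promoters of this length and in 11 of the 38 start sites of the 47 genes. Those 11 belong to Cxcl1, Cxcl2, Cxcl3, Cxcl10, Ccl1, Ccl9, Ccl20, Ccl27a, Ccr1, Ccr3 and Ccr6, so the motif is present in genes that were higher, lower and uncalled. AP-1 was found in 7.81% of all promoters and in 7 of the 38, the ISRE core in 3.44% and in 2, and the TATA box in 13.6% and in 13. A match describes letters in this window and is not a binding site.

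Cxcl1, the neutrophil attractant, had the lowest p of the 47 genes. Its values were 7.71, 8.12, 8.02 and 8.62 in Tak1/Rip3 replicates 1 to 4, and 10.14, 9.52, 9.59 and 9.52 in Tak1/Casp8 replicates 1 to 4. Every Tak1/Casp8 liver lay above every Tak1/Rip3 liver, and replicate 1 stood highest in its group. The difference was 1.57 ± 0.20 (SE), 2.97-fold higher (limma adjusted p = 0.00197). Its 3 probe sets did not differ equally: the dimmer pair differed by 1.57 and 1.46 and passed over all 223771 probe sets, of which 1.63% passed, while the brightest, near 10.8, differed by 0.38 and did not pass. With that brightest probe set standing for the gene, the call was lost (adjusted p = 0.0937), and with separate unmoderated variances for each group it was lost as well (0.0655). With any 1 array left out the difference lay between 1.42 and 1.74, with adjusted p at most 0.00762.

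Cxcl2, a close relative of Cxcl1 and the next member of its cluster, passed at a low level. It read 5.53, 5.84, 5.70 and 5.77 in Tak1/Rip3 replicates 1 to 4 and 5.97, 6.17, 6.15 and 6.49 in Tak1/Casp8 replicates 1 to 4. The groups did not overlap. All 8 readings lay under the lower quartile of single probe sets on their array, 6.47 to 6.52, taken as the background here, so no fold is given. The difference was 0.48 ± 0.12 (limma adjusted p = 0.0459), and all 4 of its probe sets were positive, from 0.34 to 0.69, with 0 passing singly and 3 at an unadjusted p under 0.05. The call was lost in 7 of the 8 fits that left out 1 array (adjusted p up to 0.131, the exception being Tak1/Casp8 replicate 1), when both least correlated arrays were dropped (0.0509) and with trend and robust settings (0.0582). It was lost too with the brightest probe set (0.389) and with separate unmoderated variances (0.159).

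**Figure D2:**
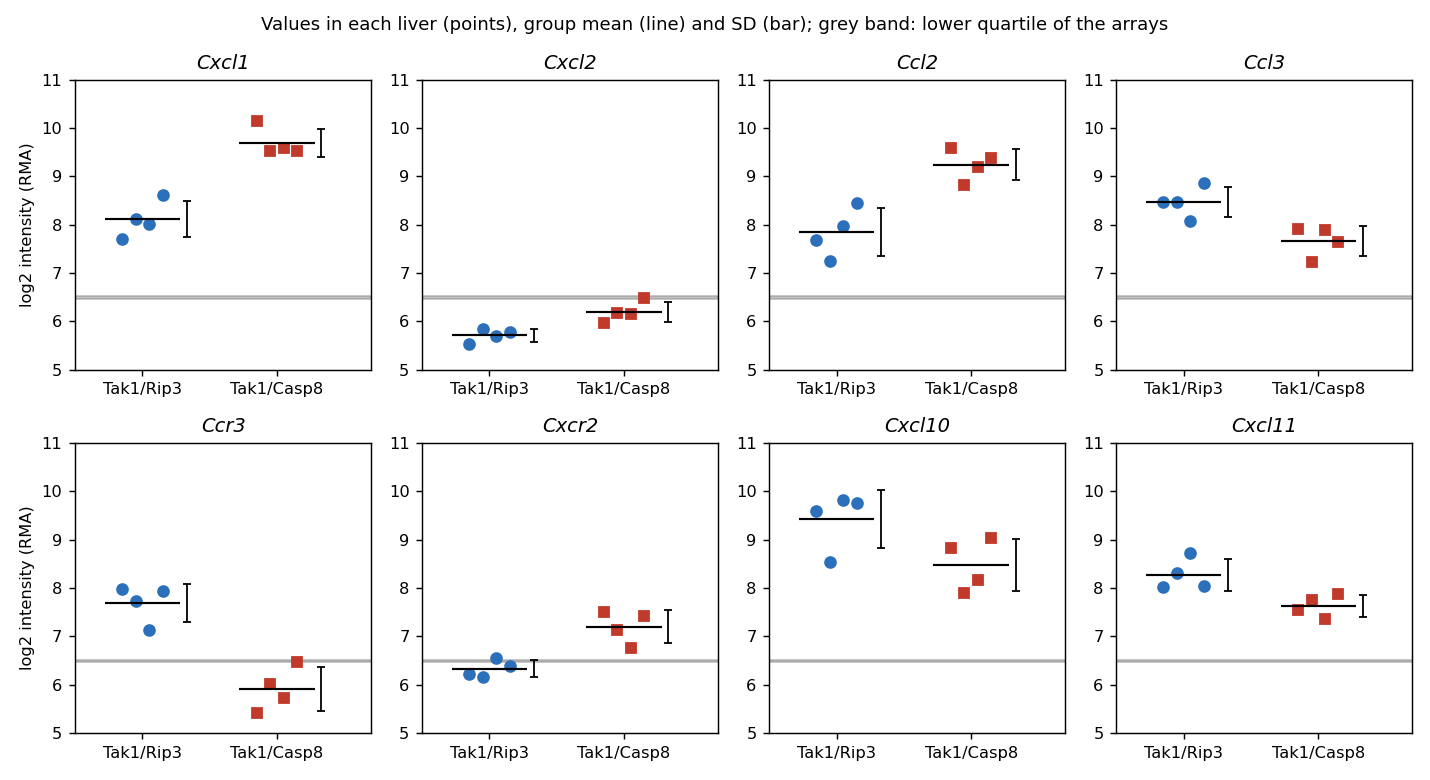
Log2 intensity (y axis) of 8 genes in each of 4 Tak1/Rip3 livers (blue circles) and 4 Tak1/Casp8 livers (red squares), with group mean (line), SD (bar) and the lower quartile of the 8 arrays (grey band). The groups separate for Cxcl1, Ccl2, Ccl3, Ccr3, Cxcr2 and Cxcl11, Cxcl2 separates at or below the band, and Cxcl10 overlaps.

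The receptor of both ligands was also higher in the Tak1/Casp8 livers. Cxcr2 stands outside the 47 genes because the annotation holds it under the old symbol Il8rb. It read 6.23, 6.16, 6.55 and 6.39 in Tak1/Rip3 replicates 1 to 4 and 7.50, 7.13, 6.75 and 7.42 in Tak1/Casp8 replicates 1 to 4. No values overlapped, and all 4 Tak1/Casp8 livers but 1 of 4 Tak1/Rip3 livers lay above background. The difference was 0.87 ± 0.17 (limma adjusted p = 0.0124), and the call was lost with separate unmoderated variances (0.131) and when both least correlated arrays were dropped (0.0521). The other ligands of Cxcr2 among the 47 genes, Cxcl3 and Cxcl5, differed by 0.10 and -0.01 and did not pass, with Cxcl5 under the background. Of 9 measured neutrophil markers 1 passed, the growth factor receptor Csf3r (0.38 ± 0.10, limma adjusted p = 0.0499). The alarmins S100a9 (0.41) and S100a8 (0.26) did not pass. Differences were positive in 6 of the 9 and negative in Retnlg (-0.34), Mmp8 (-0.20) and Ltf (-0.04), with a median of 0.13. The mean over the 9 markers lay between 6.36 and 6.86 in the Tak1/Casp8 livers and between 6.17 and 6.66 in the Tak1/Rip3 livers, and 2 of the 9 were above background in both groups. The part of neutrophil number in the Cxcr2 difference was not tested.

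Ccl2, the monocyte attractant, was higher in the Tak1/Casp8 livers. Its readings were 7.69, 7.25, 7.98 and 8.44 in Tak1/Rip3 replicates 1 to 4 and 9.58, 8.81, 9.20 and 9.38 in Tak1/Casp8 replicates 1 to 4. The highest Tak1/Rip3 liver, replicate 4, lay below the lowest Tak1/Casp8 liver. The difference was 1.40 ± 0.24, 2.64-fold higher (limma adjusted p = 0.00800). All 6 probe sets were positive, from 0.22 to 1.50, and 3 passed singly. The smallest difference belonged again to the brightest probe set, with which the call was lost (adjusted p = 0.384). It was lost with separate unmoderated variances too (0.115) and held with any 1 array left out (1.21 to 1.60, adjusted p at most 0.0304).

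Ccr2, the receptor of Ccl2 on inflammatory monocytes, did not pass. It read 8.62, 8.16, 8.76 and 8.09 in Tak1/Rip3 replicates 1 to 4 and 9.23, 8.65, 8.30 and 8.11 in Tak1/Casp8 replicates 1 to 4, so the groups overlapped. The difference was 0.16 (95% interval -0.37 to 0.70, limma adjusted p = 0.755). The related monocyte attractant Ccl7 differed by 0.40 ± 0.15 with groups that did not overlap, and Ccl12 and Ccl8 by 0.23 and 0.22, both under the background. None of these 3 passed. Of 7 monocyte markers 0 passed in limma, 3 had an unadjusted p under 0.05, and 0 passed with separate unmoderated variances. Chil3 differed by 1.41, Itgam by 0.69 and Ly6c2 by -0.47, with limma adjusted p of 0.0596, 0.0799 and 0.0793. The groups overlapped for Chil3, which was above background on 1 of 4 Tak1/Casp8 and 0 of 4 Tak1/Rip3 arrays. The mean over the 7 lay between 7.10 and 7.82 in the Tak1/Casp8 livers and between 7.05 and 7.55 in the Tak1/Rip3 livers. Of 9 Kupffer cell markers 1 passed, the scavenger receptor Cd163 (1.98 ± 0.15). Cd163 was above background on 4 of 4 Tak1/Casp8 and 0 of 4 Tak1/Rip3 arrays. C6 differed by 0.62 and Clec4f by 0.35. Differences were positive in 8 of the 9 and negative in Adgre1 (-0.19), with a median of 0.29. The mean over the list lay between 9.92 and 10.2 in the Tak1/Casp8 livers and between 9.41 and 9.97 in the Tak1/Rip3 livers.

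Ccl3, a macrophage and lymphocyte product that acts on Ccr1, went the other way. It read 8.46, 8.46, 8.08 and 8.86 in Tak1/Rip3 replicates 1 to 4 and 7.91, 7.23, 7.88 and 7.65 in Tak1/Casp8 replicates 1 to 4. Each Tak1/Casp8 liver was below each Tak1/Rip3 liver. The difference was -0.80 ± 0.19, 1.74-fold lower (limma adjusted p = 0.0299). Of its 6 probe sets 5 were negative, down to -0.91, but the brightest, near 10.2, differed by 0.29, and 0 passed singly, with 4 at an unadjusted p under 0.05. With the brightest probe set the sign of the gene turned (0.29, adjusted p = 0.331). Leaving out a single liver ended the call for Tak1/Rip3 replicates 1, 2 and 4 and for Tak1/Casp8 replicates 2 and 4 (adjusted p from 0.0548 to 0.0831). It was also lost when both least correlated arrays were dropped (0.0886) and with separate unmoderated variances (0.151). Its close relative Ccl4 differed by -0.07, under the background.

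The receptor Ccr1 had a positive difference that depended on how its probe sets were joined. Its readings were 5.67, 4.75, 5.41 and 5.66 in Tak1/Rip3 replicates 1 to 4 and 7.05, 5.64, 6.07 and 5.55 in Tak1/Casp8 replicates 1 to 4. Only the reading of Tak1/Casp8 replicate 1 lay above background. Tak1/Casp8 replicates 2 and 4 lay inside the Tak1/Rip3 range, and the difference of 0.71 ± 0.32 did not pass (limma adjusted p = 0.237). Yet all 5 probe sets were positive, from 0.81 to 0.91, a narrow range, while 0 passed singly and 4 had an unadjusted p under 0.05. The mean over probe sets gave 0.85 (limma adjusted p = 0.0390) and the brightest probe set 0.86 (0.0289). That probe set, near 8.45, was the only one with both group means above background. Without Tak1/Casp8 replicate 1, the highest liver, the difference was 0.38 (0.396), and over all alternatives the adjusted p reached 0.436. Further ligands of Ccr1 among the 47 genes, Ccl6, Ccl9 and Ccl5, differed by 0.11, 0.28 and -0.13 and did not pass.

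**Figure D3:**
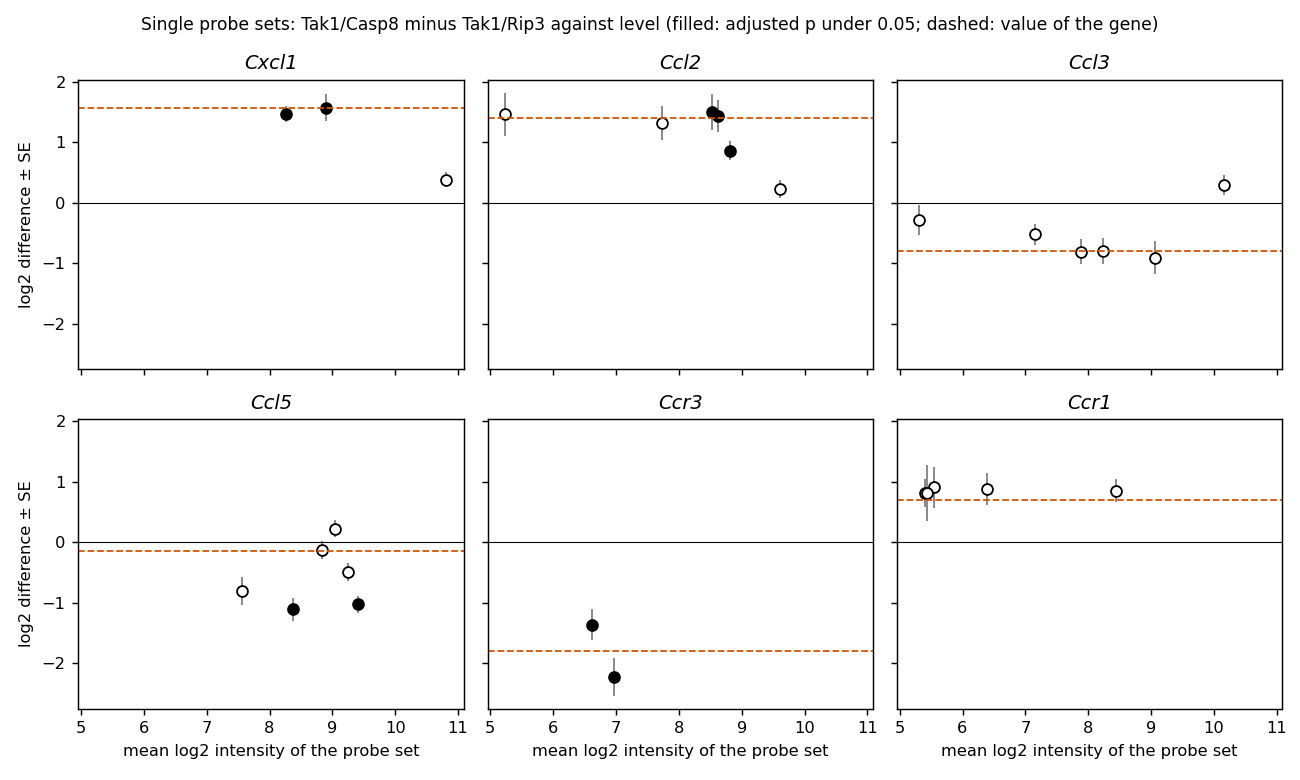
Log2 difference ± SE (y axis) of each probe set of 6 genes against its mean log2 intensity (x axis), over 4 livers per group. Filled points passed over all probe sets, and the dashed line is the value of the gene. The brightest probe sets of Cxcl1, Ccl2 and Ccl3 lie at 0.38, 0.22 and 0.29, the 6 of Ccl5 spread from -1.11 to 0.23, and the 5 of Ccr1 lie close together.

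Ccl5, a T cell and platelet chemokine that acts on Ccr1 and Ccr3, also depended on how its probe sets were joined. As the median over 6 probe sets it read 8.96, 9.07, 8.88 and 8.85 in Tak1/Rip3 replicates 1 to 4 and 8.78, 8.63, 8.91 and 8.90 in Tak1/Casp8 replicates 1 to 4. The groups overlapped and the difference of -0.13 did not pass (limma adjusted p = 0.486). Of the 6 probe sets, 5 were negative, and the pair with the largest differences (-1.03 and -1.11) passed singly. The mean over probe sets gave -0.55 (adjusted p = 0.00647) and the brightest -1.03 (0.00398). Over all alternatives the adjusted p reached 0.743.

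Ccr3, the eotaxin receptor of eosinophils, had the largest absolute difference of the 47 genes. It read 7.98, 7.73, 7.13 and 7.93 in Tak1/Rip3 replicates 1 to 4 and 5.42, 6.01, 5.71 and 6.47 in Tak1/Casp8 replicates 1 to 4. All 4 Tak1/Rip3 livers were above background and all 4 Tak1/Casp8 livers were below it. The difference was -1.79 ± 0.24 (limma adjusted p = 0.00268). Against the background of the Tak1/Casp8 arrays, the gene was at least 2.31-fold lower there. It rests on 2 probe sets, which differed by -2.22 and -1.36 and both passed singly. The call held with the mean or the brightest probe set and with any 1 array left out (-1.98 to -1.63, adjusted p at most 0.0120), and was lost with separate unmoderated variances (0.0710).

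None of the ligands of Ccr3 among the 47 genes passed. Ccl24 read 7.28, 6.60, 6.89 and 7.18 in Tak1/Rip3 replicates 1 to 4 and 7.42, 7.41, 7.53 and 7.85 in Tak1/Casp8 replicates 1 to 4, without overlap. It differed by 0.56 ± 0.16 and did not pass (limma adjusted p = 0.0678). It passed with quantile normalisation (0.0494), arrays shifted to 1 median (0.0348), the mean over probe sets (0.0465) and without dim genes (0.0464). With both least correlated arrays dropped it was 0.33 (0.142), and over all alternatives the adjusted p reached 0.213. Ccl11 differed by -0.04 (95% interval -0.48 to 0.41). In Tak1/Rip3 replicates 1 to 4 it read 7.23, 6.60, 7.27 and 7.45, and in Tak1/Casp8 replicates 1 to 4 it read 7.56, 7.01, 6.99 and 6.86. Of 6 measured markers of eosinophils, a list added after these values were seen, 0 passed in limma or with separate unmoderated variances, and 1 had an unadjusted p under 0.05. The differences were positive in 3 of the 6, Il5ra (0.15), Prg2 (0.12) and Ear6 (0.01), and negative in the other 3, Prg3 (-0.44), Alox15 (-0.48) and Epx (-0.09), with a median of -0.04. None of the 6 was above background on all arrays of both groups, and their mean lay between 5.52 and 5.68 in the Tak1/Casp8 livers and between 5.44 and 5.94 in the Tak1/Rip3 livers. The part of eosinophil number in the Ccr3 difference was not tested.

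None of the interferon-induced chemokines Cxcl9, Cxcl10 and Cxcl11 passed. Cxcl10 read 9.59, 8.55, 9.83 and 9.75 in Tak1/Rip3 replicates 1 to 4 and 8.83, 7.89, 8.17 and 9.03 in Tak1/Casp8 replicates 1 to 4. Tak1/Rip3 replicate 2 lay within the Tak1/Casp8 range and accounts for the overlap. The difference was -0.95 ± 0.32 (95% interval -1.65 to -0.25, limma adjusted p = 0.108), and all 4 probe sets were negative, from -0.98 to -0.85. Without Tak1/Rip3 replicate 2 it was -1.24 (adjusted p = 0.0226), with array weights -1.25 (0.0140), and with both least correlated arrays dropped -1.42 (0.00889). Over all alternatives the adjusted p reached 0.295, with separate unmoderated variances. Its neighbour Cxcl11 read 8.02, 8.30, 8.73 and 8.05 in Tak1/Rip3 replicates 1 to 4 and 7.55, 7.75, 7.35 and 7.88 in Tak1/Casp8 replicates 1 to 4, with no overlap. The difference was -0.64 ± 0.17 (limma adjusted p = 0.0528), and it passed with array weights (0.0376), with trend and robust settings (0.0389), without dim genes (0.0360) and without Tak1/Casp8 replicate 4 (0.0442). Over all alternatives its adjusted p reached 0.195. The third gene of the trio, Cxcl9, differed by -0.11 ± 0.19 at group means of 8.78 and 8.89. Of 12 T and natural killer cell markers 0 passed in limma or with separate unmoderated variances and 3 had an unadjusted p under 0.05, with a median difference of -0.10, and their mean lay between 6.12 and 6.23 in the Tak1/Casp8 livers and between 6.20 and 6.35 in the Tak1/Rip3 livers.

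The chemokines that read brightest did not pass. The brightest readings of the 47 genes came from Ccl9, Cxcl12, Ccl6, Cxcl14 and Cxcl16, though readings of different genes do not rank their abundance. Cxcl12, the stromal ligand of Cxcr4, read 10.70, 11.06, 10.88 and 10.61 in Tak1/Rip3 replicates 1 to 4 and 10.66, 10.41, 10.63 and 10.59 in Tak1/Casp8 replicates 1 to 4. It differed by -0.24 (95% interval -0.50 to 0.02). Cxcl14 read 10.08, 10.17, 10.44 and 10.20 in Tak1/Rip3 replicates 1 to 4 and 10.03, 10.05, 9.81 and 9.74 in Tak1/Casp8 replicates 1 to 4, without overlap, and its difference of -0.32 ± 0.11 did not pass (limma adjusted p = 0.139). Ccl9 read 11.49, 11.36, 11.06 and 11.44 against 11.79, 11.61, 11.61 and 11.44 in the same order of groups and replicates. Ccl6 read 10.25, 10.34, 10.50 and 10.72 against 10.98, 10.41, 10.77 and 10.08. Cxcl16, the membrane-bound ligand of Cxcr6, read 9.22, 9.25, 9.10 and 9.23 against 9.31, 9.16, 9.22 and 8.99. For these 3 genes the groups overlapped, and the 95% intervals of the differences ran from 0.01 to 0.54, from -0.30 to 0.53 and from -0.24 to 0.19. Beside Cxcl12, 2 of 9 markers of stellate cells, which are known to make it, passed as lower, beside 4.05% of all genes. These were Lrat (-0.59 ± 0.11) and Reln (-0.65 ± 0.16). Of the 9 differences 0 were positive, with a median of -0.36, and 0 passed with separate unmoderated variances. The mean over those 9 lay between 9.78 and 10.2 in the Tak1/Casp8 livers and between 10.3 and 10.5 in the Tak1/Rip3 livers. Their part in the chemokine values was not tested.

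**Figure D4:**
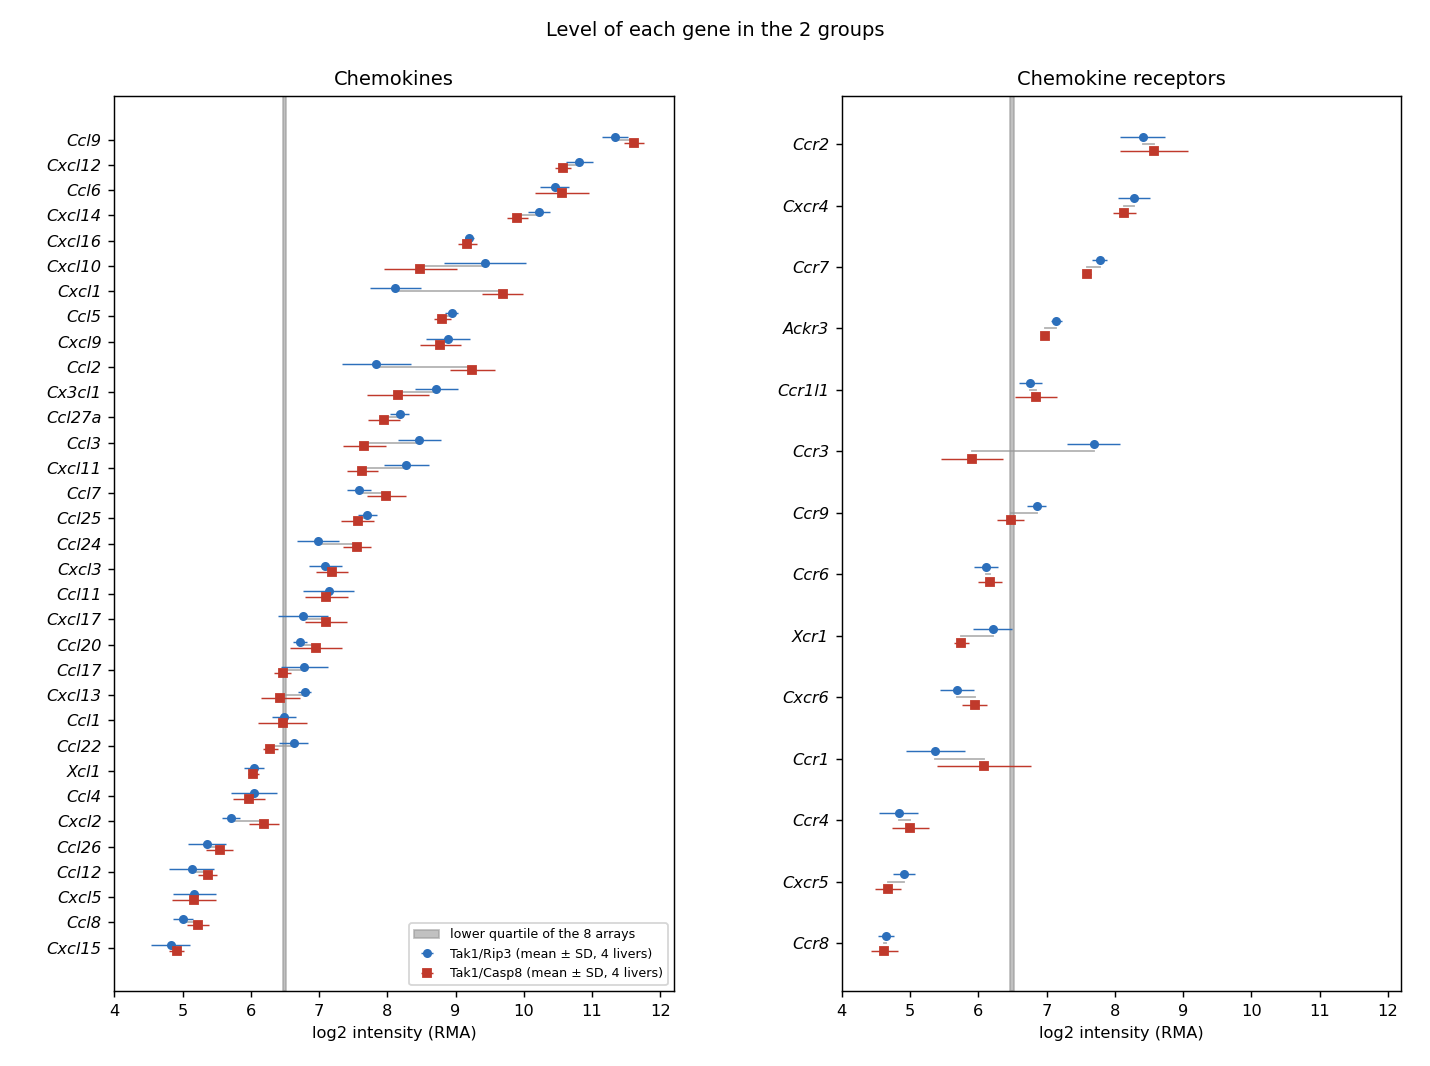
Mean log2 intensity ± SD (x axis) of each chemokine (left) and receptor (right) in 4 Tak1/Rip3 (blue circles) and 4 Tak1/Casp8 livers (red squares), with the lower quartile of the 8 arrays as a grey line. Genes are ordered by their mean reading, which does not rank abundance, and Ccr3 is the gene whose group means lie farthest apart, on opposite sides of the line.

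Most receptors gave dim readings. Above background on all 4 arrays of both groups were 4 of 14 receptors, Ccr2, Cxcr4, Ccr7 and Ackr3, against 19 of 33 chemokines. Ccr3, Ccr9 and Ccr1l1 were above it on all arrays of the Tak1/Rip3 group only, and the other 7 receptors in neither group. Among chemokines, Cxcl13 and Ccl20 were above it on all arrays of the Tak1/Rip3 group only, Cxcl17 of the Tak1/Casp8 group only, and 11 in neither. In all, 29 of 47 (61.7%) were above background on all arrays of at least 1 group, beside 68.4% of all genes. Of the 18 genes above background in neither group, 1 passed, Cxcl2, and at such signals RMA compresses differences.

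Cxcr4, which guides lymphocytes and progenitors towards Cxcl12, read 8.51, 8.37, 8.29 and 7.95 in Tak1/Rip3 replicates 1 to 4 and 8.16, 8.36, 8.10 and 7.94 in Tak1/Casp8 replicates 1 to 4. The groups overlapped (difference -0.14, 95% interval -0.44 to 0.16). Ccr7, the homing receptor of T cells and mature dendritic cells, read 7.93, 7.68, 7.77 and 7.72 against 7.61, 7.51, 7.61 and 7.65. Its groups did not overlap, but the difference of -0.18 ± 0.09 did not pass (limma adjusted p = 0.296). With the mean over probe sets Ccr7 differed by -0.28 (0.0419) and with the brightest by -0.57 (0.0205), and over all alternatives the adjusted p reached 0.551. Ackr3, listed as Cxcr7 in the annotation, scavenges Cxcl12 without G protein signalling. Its readings were 7.25, 7.17, 7.09 and 7.07 against 6.97, 7.01, 6.93 and 7.02, a small difference of -0.16 ± 0.09 that separated the groups without passing, and 1 of its 4 probe sets passed singly (-0.71).

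Among dim receptors, Xcr1, which marks cross-presenting dendritic cells, read 6.16, 6.61, 5.93 and 6.13 in Tak1/Rip3 replicates 1 to 4 and 5.73, 5.73, 5.64 and 5.91 in Tak1/Casp8 replicates 1 to 4. The groups did not overlap, and the difference of -0.46 ± 0.14 did not pass (limma adjusted p = 0.0875), except with quantile normalisation (0.0318), and reached 0.263 over all alternatives. Its ligand Xcl1 differed by -0.01. Ccr9, a gut homing receptor with 1 probe set, read 6.97, 6.66, 6.91 and 6.87 against 6.74, 6.51, 6.34 and 6.31, and differed by -0.38 ± 0.12 (limma adjusted p = 0.0948). It passed without Tak1/Casp8 replicate 1 (0.0490) and reached 0.226 without Tak1/Rip3 replicate 1, and its ligand Ccl25 differed by -0.14. Ccr1l1, a Ccr1-like receptor, read 6.68, 6.87, 6.56 and 6.93 against 6.45, 6.80, 6.99 and 7.15 and differed by 0.08. The dendritic cell chemokine Ccl22 read 6.35, 6.81, 6.57 and 6.79 against 6.29, 6.17, 6.24 and 6.44, a difference of -0.34 ± 0.12 near the background (limma adjusted p = 0.131). Ccl17, its partner on Ccr4, differed by -0.32. Beside these, 1 of 7 dendritic cell markers passed, Siglech of plasmacytoid dendritic cells (-0.68 ± 0.08). Differences were positive in 2 of the 7, Clec9a (0.43) and Itgae (0.12), and the median was -0.04. The mean over the 7 lay between 7.06 and 7.17 in the Tak1/Casp8 livers and between 7.09 and 7.35 in the Tak1/Rip3 livers.

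The 23 genes not given liver by liver, some of them named above as relatives or partners, had differences from -0.56 to 0.40 and adjusted p from 0.146 to 0.987. The lowest difference was that of Cx3cl1, the membrane-bound fractalkine (-0.56 ± 0.23), which passed when its brightest probe set stood for it. The B cell chemokine Cxcl13 differed by -0.36 and its receptor Cxcr5 by -0.23. Beside them, the B cell genes Cd79a (-1.38 ± 0.15) and Ms4a1 (-1.11 ± 0.17) passed as lower and Jchain, of plasma cells, as higher (2.03 ± 0.25). Ms4a1 was under the background on all arrays, and Cd79a was above it on 0 of 4 Tak1/Casp8 and 2 of 4 Tak1/Rip3 arrays. The B cell genes Cd79b (-0.40) and Pax5 (0.10) did not pass. Of the 7 measured B and plasma cell markers 3 differences were positive, the median was -0.11, and 1 passed with separate unmoderated variances. Ccl20 and its receptor Ccr6 differed by 0.24 and 0.05, Cxcr6 by 0.26, Ccl27a by -0.23, Cxcl17 by 0.33, Ccl26 by 0.19, Ccr4 by 0.17 and Cxcl15 by 0.09. Ccl1 and Ccr8 differed by -0.01 and -0.02.

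Many of these genes lie in clusters, and neighbours did not always differ alike. By gene order in the RefSeq table, runs of 3 or more of the 47 genes, each starting within 1 Mb of the next, lay on chromosomes 5, 8, 9 and 11. In the run Cxcl5, Cxcl3, Cxcl15, Cxcl1 and Cxcl2 on chromosome 5, the last 2 passed and the first 3 differed by at most 0.10. On chromosome 11, Ccl2 passed at the head of a run of 6 in which Ccl7 differed by 0.40 and the other 4 by -0.04 to 0.23. In the second run there, Ccl3 stood alone between Ccl6 and Ccl4. On chromosome 9, Ccr3 (-1.79) lay between Ccr1l1 (0.08) and Ccr2 (0.16), with Ccr1 (0.71) before them. The 3 genes of the chromosome 8 run, Ccl22, Cx3cl1 and Ccl17, all had negative differences, and none passed. The same held in the other run on chromosome 5, Cxcl9 (-0.11), Cxcl10 (-0.95) and Cxcl11 (-0.64). Of the neighbours above, Cxcl5, Cxcl15, Ccl12, Ccl8 and Ccl4 were under the background on all arrays. RMA compresses differences there, so their small values cannot show that they differed unlike their neighbours.

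**Figure D5:**
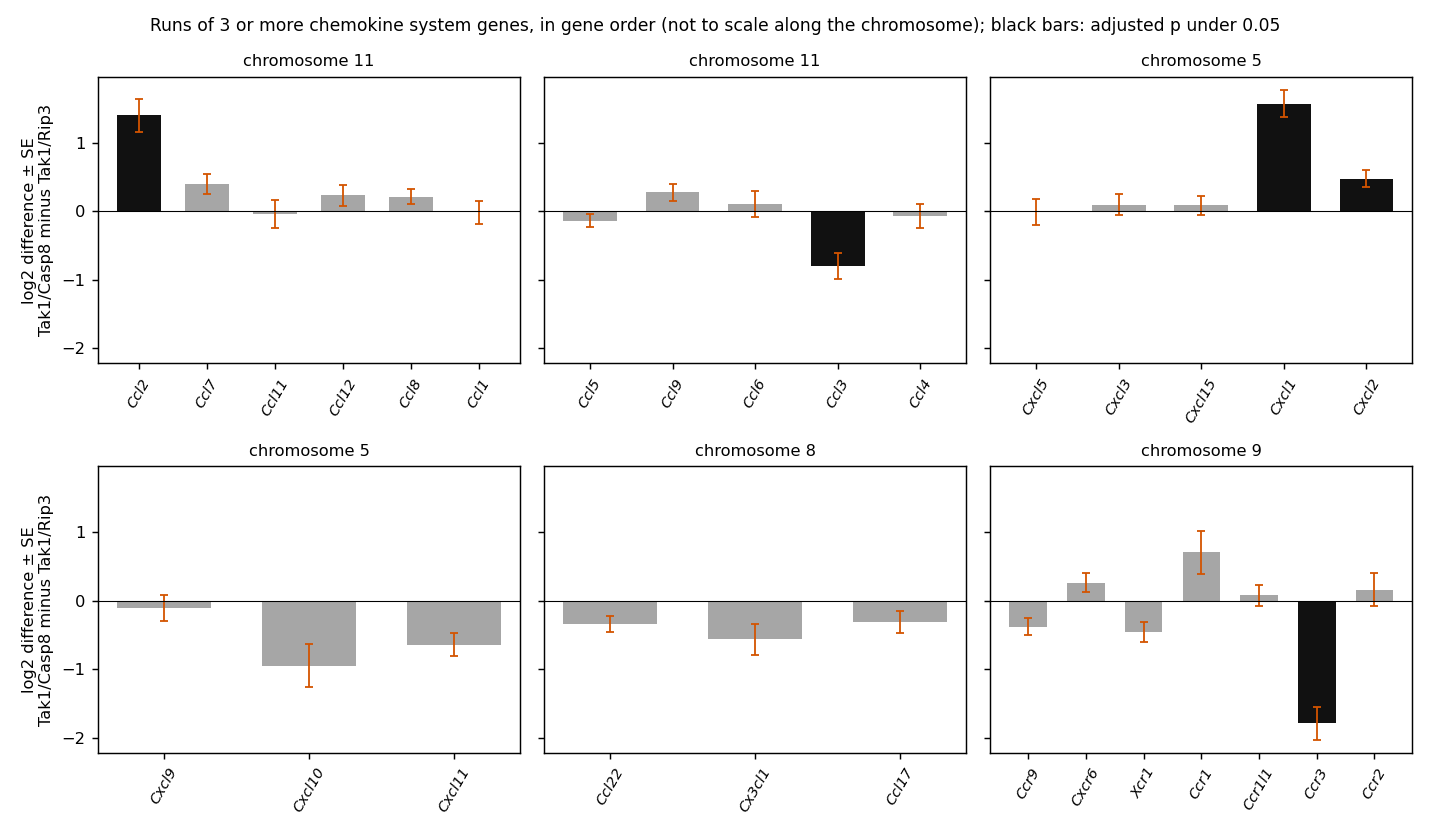
Log2 difference ± SE (bars and error bars, y axis; 4 livers per group) of neighbouring genes in chromosomal order (x axis, not to scale) in the 6 runs of 3 or more. Black bars passed the test. Cxcl1 with Cxcl2, Ccl2, Ccl3 and Ccr3 are the only black bars, in 4 of the 6 runs.

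Among other genes listed for chemokine handling or receptor signalling, 1 of 31 passed, beside 6.69% of all genes. A list of 12 held chemokine-binding proteins and genes of other attractants, such as Fpr1, Fpr2, C5ar1, Cmklr1 and Rarres2. Pf4 and Ppbp on it, chemokines whose symbols fall outside the rule, differed by -0.23 and -0.17. In this list 1 gene was higher and 0 lower, with a median of 0.03. The one that passed was Dpp4, a peptidase that trims chemokines (0.50 ± 0.11, limma adjusted p = 0.0222). The erythroid and endothelial decoy receptor Ackr1, under the background on all arrays, differed by 0.83 and the decoy Ackr4 by -0.45, and neither passed. Of 19 genes of receptor signalling 0 passed in limma or with separate unmoderated variances, 4 had an unadjusted p under 0.05, 4 differences were positive and the median was -0.12. Rgs1, which shortens G protein signals in leukocytes, was the nearest (-0.83, adjusted p = 0.0621), with Dock2 at -0.37 and Rac2 at -0.31. Of 20 cytokines and NF-kB genes listed as upstream of chemokines, NF-kB inhibitors included, 5 were higher and 0 lower. These counts stand beside 2.64% and 4.05% of all genes, and the median was 0.20. With separate unmoderated variances 0 of the 20 passed, and 8 had an unadjusted p under 0.05 in limma. Those that passed were Il18 (0.88 ± 0.15), the interleukin 1 receptor Il1r1 (0.79 ± 0.20), the NF-kB inhibitor Tnfaip3 (0.56 ± 0.14), Il1b (0.53 ± 0.14) and the NF-kB cofactor Nfkbiz (0.52 ± 0.13). Apart from Il18, their limma adjusted p lay close to the threshold, between 0.0406 and 0.0463, and the groups overlapped for Il1r1. Il1a differed by -0.55 (limma adjusted p = 0.0541), Tnf by 0.02 and Il6 by 0.20, the latter far under the background. The endothelial and hepatocyte markers, 8 genes each, had 0 that passed in limma or with separate unmoderated variances, 2 and 1 at an unadjusted p under 0.05, and medians of 0.05 and -0.01. Of 7 bile duct markers the cytokine Spp1 was higher (0.97 ± 0.20), and the other 6 did not pass. Of these, Epcam (-1.05, limma adjusted p = 0.0651), Krt7 (-0.30), Krt19 (-0.30) and Cftr (-0.10) had negative differences. Those of Sox9 (0.29) and Sctr (0.20) were positive. The median of that list was -0.10.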

How the data were processed

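Total RNA from 8 frozen livers went onto 1 Affymetrix array each, after amplification and labelling. The values the authors deposited are log2 intensities; RMA is the tool in the submitters' processing notes, without a version. RMA compresses small differences near the background. Genotype labels set the groups, and no label gives a pairing, litter, scan or batch. The labels do not say whether mice came from separate litters.

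Of 223771 probe sets 206316 carried 1 symbol. The old annotation was updated for 2571 symbols with the RefSeq table of GRCm38.p6, which held 19456 of 19560 symbols. A gene's value is the median over its probe sets. A further 44 probe sets shared between symbols were left out. R 4.3.3 with limma 3.58.1 (lmFit and eBayes, 1 group term, 8 arrays, two-sided) gave the tests. On simulated data with independent normal noise, 42% of added differences of 0.5 and 97% of those of 1 passed. There, 14 of 182 calls were false. Such noise follows limma's own assumptions, so the simulation cannot check them on these arrays. Figures used matplotlib 3.10.9. Background is an array's lower quartile over single probe sets.

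Values per array are given for genes that passed, the 6 next by p, the 5 brightest ligands and receptors, and partners of those that passed. In the other 13 lists, of 140 genes with 134 measured, the 3 genes of smallest p are named for chemokine handling, upstream, neutrophil, monocyte and Kupffer cell lists, and elsewhere those that passed. Some others were named after their values were seen. Ackr3, 1 of the 140, counts with the receptors instead. Members and lists were chosen with earlier results of these data known. Alternatives concerned normalisation, probe set summary, a filter, the variance model, array weights, thresholds and each array left out. Dropping both least correlated arrays was an alternative chosen after seeing the data.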

Additional observations from a re-analysis of the deposited data

Results flagged for a closer look

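Of 50 groups of 4 livers tested (25 genes in 2 groups), 1 held a liver that stood apart from the rest by Dixon's test. Cxcl1 in Tak1/Casp8 replicate 1 read 10.14, with the other 3 livers of the group between 9.52 and 9.59. Chance alone gives about 1 in 20 such groups. Without that liver Cxcl1 differed by 1.42 and still passed (limma adjusted p = 0.00502).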

How the results depend on the processing

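Of 1308 genes that passed, the number ranged from 706 to 1347 with any 1 array left out, and 1456 with both least correlated arrays dropped. It was 759 with the brightest probe set, 115 with separate unmoderated variances (Welch), 406 at an adjusted p under 0.01 and 2130 under 0.1. All 5 called chemokine genes had the same direction in these settings except Ccl3 (0.29 with the brightest probe set). Chemokine calls, 4, became 7 with the mean over probe sets (Ccl2, Ccl3, Ccl5, Ccl7, Ccl24, Cxcl1, Cxcl2), 2 with the brightest (Ccl5, Cx3cl1), 2 at 0.01 (Ccl2, Cxcl1), 0 with Welch's variances, and 2 to 5 with any 1 array left out. Receptor calls, 1, became 2 with quantile normalisation (Ccr3, Xcr1), 3 with the mean or the brightest probe set (Ccr1, Ccr3, Ccr7), 3 at 0.1 (Ccr3, Ccr9, Xcr1), 0 with Welch's variances and 1 to 2 with any 1 array left out. Where Welch's variances gave 0 of 47, 13 had an unadjusted p under 0.05, against 16 in limma. Calls in the other lists, 15, became 9 (brightest), 24 (array weights), 3 (Welch), 6 (0.01), 27 (0.1) and 8 to 14 (1 array left out). Genes above background, 29, became 12 with the array median as background. Among uncalled genes, Ccl6 turned to -0.092 (mean over probe sets) and -0.21 (brightest). Cxcl16 turned to 0.013 (quantile), 0.045 (arrays shifted to 1 median), 0.16 (mean), 0.048 (brightest), 0.011 (array weights) and 0.050 (both arrays out). Ccl11 turned to 0.0070 (quantile), 0.036 (shifted) and 0.17 (brightest). With any 1 array left out, Ccl6 ranged from -0.029 to 0.27, Cxcl16 from -0.074 to 0.033, Ccr2 from -0.056 to 0.32, Ccr1l1 from -0.018 to 0.22 and Ccl11 from -0.21 to 0.068. Cxcl2 gave no value in the setting without dim genes. The cause of these shifts was not tested. No paired analysis was possible because the labels give no number that pairs livers of both groups. With 4 arrays per group and dim probe sets, small differences may be missed, and the median over probe sets can differ from single probe sets.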

Other observations

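Ccl19 and the Ccl21 genes, the ligands of Ccr7, are read on these arrays by probe sets that carry several symbols and so gave no gene value above. The 18 probe sets of Ccl21a, Ccl21b and Ccl21c had a median of 9.31, 7.84, 9.21 and 7.91 in Tak1/Casp8 replicates 1 to 4 and of 9.38, 9.53, 9.69 and 9.40 in Tak1/Rip3 replicates 1 to 4. Tak1/Casp8 replicates 2 and 4 thus read more than 1 lower on the log2 scale than every other liver. All 18 differences were negative, from -1.29 to -0.79, and 0 passed limma's test over all probe sets, while all 18 had an unadjusted p under 0.05. The 15 probe sets of Ccl19 and its unnamed copies were at 8.96 ± 0.25 (SD, n = 4) in the Tak1/Casp8 livers and 9.08 ± 0.11 in the Tak1/Rip3 livers. The 9 probe sets shared by Ccl27a and Gm13306 were at 9.29 ± 0.06 against 8.88 ± 0.12, while those of Ccl27a alone differed by -0.23.

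In Cxcl1, Ccl2 and Ccl3 the brightest probe set differed least or in the opposite direction from the rest, and Ccl5, Ccr1 and Ccr7 passed as genes when the brightest probe set stood for each gene and not with the median. Tested among all probe sets, the brightest of Ccl5 passed (limma adjusted p = 0.0157), and those of Ccr1 (0.0703) and Ccr7 (0.0614) did not. The positions of the probe sets in the transcripts were not used here.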
